A study of Danio rerio with 5 samples.

Results

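In border zone cells sorted from injured zebrafish hearts, 75 of the 17997 gene IDs counted were present at similar levels at 1 and 3 days post-cryo-injury (dpci) and were low at 7 dpci. A gene was a member if it had at least 50 CPM at both 1 and 3 dpci, with these values within 2-fold of each other and the lower of them at least 4 times the highest CPM of the 3 plates of 7 dpci. CPM here means molecules of a gene scaled to a plate total of 1000000, spike-ins left out, with molecules summed over the wells that held at least 500 of them. Ribosomal, proteasome, mitochondrial carrier, translation initiation, splicing, collagen, laminin, integrin, potassium channel and heat shock genes were left out by name, as were a few single genes. This removed 7 of the 82 genes that met the thresholds, namely hsp90aa1.1, HSP90AA1, hsp70.3, LCP1, FOS, egr1 and JUN. The CPM of the plates chose the members, so the difference between early and late plates is given below as a description and carries no test.

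All cells came from the ventricle of adult fish of genotype TL carrying TgBAC(nppa:mCitrine), in which the nppa promoter drives the fluorescent protein mCitrine in border zone cardiomyocytes. Every heart had been injured at the tip of the ventricle with a frozen copper probe, and no uninjured heart was among the samples used here. Living cells were sorted on mCitrine, 1 per well, into 384-well plates and sequenced by SORT-seq, in which unique molecular identifiers (UMIs) count molecules instead of PCR copies. The first 2 time points had 1 plate each and 7 dpci had 3 plates. Which fish each plate holds is not in the labels, and the paper counts hearts per time point only. Whether the 3 plates of 7 dpci share fish is not known, so they may be technical replicates. All plates carried the same 384 well numbers.

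Cardiac injury first calls in neutrophils and macrophages and activates the endocardium and the epicardium, and cardiomyocytes at the wound edge then loosen their contractile programme before they divide. AP-1 factors, NF-kB and JAK-STAT signalling switch on within hours in many of these cells, together with their own inhibitors, such as IkB and SOCS proteins. Blood vessel and endocardial cells carry flow sensors, Notch signalling and anticoagulants, while macrophages carry chemokines, complement and pattern-recognition receptors.

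With at least 500 UMIs required, the 1 dpci plate gave 319 wells, the 3 dpci plate 300, and the late plates (1, 2 and 3) gave 190, 247 and 246. These wells held between 330335 and 1479774 UMIs a plate, with the lowest total on plate 1 of 7 dpci, and the median well held 1042 to 2728 UMIs. The cell type label was checked against markers. Of the 29 cardiomyocyte marker IDs, 25 were among the gene IDs counted. They summed to 102821 CPM at 1 dpci, 139478 CPM at 3 dpci and 195714 to 225336 CPM at 7 dpci. nppa itself stood at 933, 745, 312, 248 and 260 CPM in the same order of plates. Markers of 6 of the 9 other cell lists were higher on both early plates than on any late plate. Macrophage markers summed to 2025 and 1389 CPM at 1 and 3 dpci against 164 to 279 CPM at 7 dpci, endothelial or endocardial markers to 503 and 313 against 2.73 to 24.2 CPM, epicardial or fibroblast markers to 1615 and 726 against 65.9 to 347 CPM, and neutrophil markers to 1700 and 360 against 31.7 to 50.6 CPM. At 1 dpci mmp13a alone gave 645 of the 1700 CPM, while the neutrophil genes lyz, npsn and cfl1l were at 1.35, 0.676 and 3.38 CPM. Erythroid and thrombocyte markers were also above the late plates but took at most 50.7 CPM. The other 3 lists overlapped between early and late plates, with smooth muscle or mural markers at 389 and 256 against 190 to 871 CPM, lymphocyte markers at 25.04 and 8.82 against 2.53 to 15.1 CPM and neural or glial markers at 4.73 and 3.31 against 2.53 to 15.1 CPM. In these lists csf1ra and laptm5 of macrophages and kdrl of endothelium were not among the gene IDs counted, so their levels are not known. marco, cdh5 and FN1 were counted and had UMIs. In sums over a plate, fewer cells of a type and less RNA per cell cannot be told apart.

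Together the 75 genes took 17826 CPM at 1 dpci (95% Poisson interval 17611 to 18042) and 14502 CPM at 3 dpci (14255 to 14752). On the 7 dpci plates they took 1437, 857 and 856 CPM, a mean of 1050 ± 335 CPM (SD, n = 3). The SD is a spread between plates, which may be technical. The Poisson intervals cover counting error only, and with 1 plate per early time point the spread between fish is not in them. Of the 1296 genes that had 50 CPM or more at both early time points and similar values there, the members made up 5.79%, the share that the threshold on 7 dpci leaves. The median member had a lower early CPM 11.7 times its 7 dpci mean, against 1.23 times over all 1296 genes. Both early plates lay above all 3 late plates in 49.1% of the 1296 genes, so the order of the plates alone did not set the members apart. Library totals carry a general shift: under TMM scaling the median gene differed by -0.12 (7 against 1 dpci) and -0.08 (7 against 3 dpci) on the log2 scale, and under plain totals by -0.73 and -0.63. With TMM totals 40 genes met the rule, 39 of them members.

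**Figure D1:**
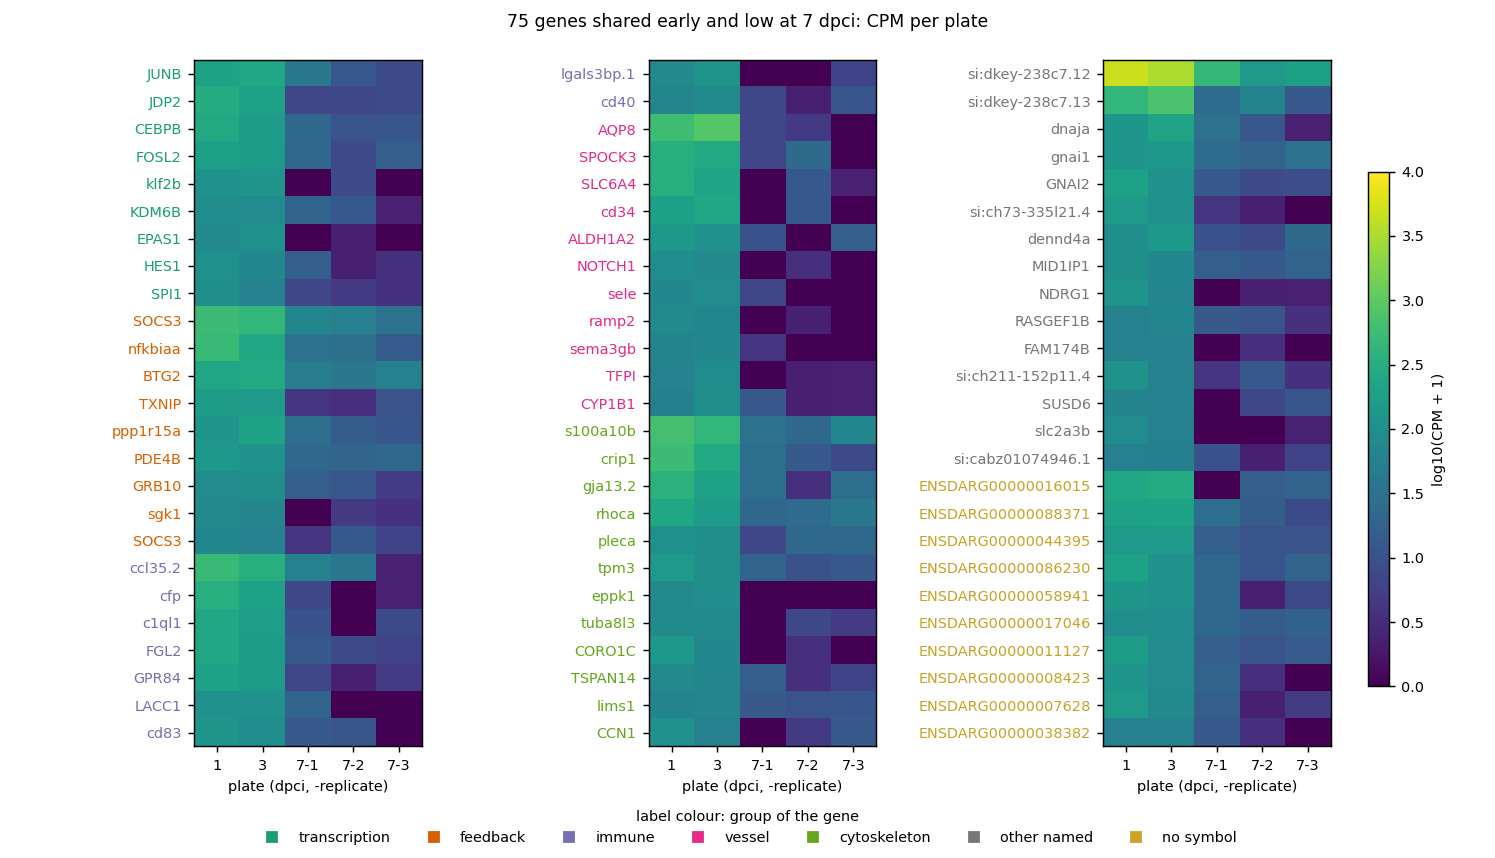
Colours show log10(CPM + 1) of the 75 genes on the 5 plates, with gene names coloured by the group used in the text. The first 2 columns of each block (1 and 3 dpci) are brighter than the 3 columns of 7 dpci in every row, as the rule requires, and 30 genes have at least 1 plate of 7 dpci at 0.

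Within the set, 49 genes were higher at 1 dpci and 26 at 3 dpci, and 49 differed by less than 1.5-fold between these plates. The lower early CPM was at least 10 times the highest 7 dpci CPM in 28 genes, 5 to 10 times in 28 and 4 to 5 times in 19. Just inside the threshold were rhoca (4.04 times), gnai1 (4.07), MID1IP1 (4.10), BTG2 (4.16) and dennd4a (4.22). Just outside it were cald1a (3.74), rsrp1 (3.72), CANX (3.702), peds1 (3.695) and JUND (3.67). The highest of the 3 late values was on the shallow plate 1 in 42 members, counting eppk1, which was at 0 on all 3 plates. Without plate 1 of 7 dpci 115 genes would have met the rule.

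Gene names follow a table that gives many zebrafish genes the symbol of the human gene, in capitals, so which paralog such a row counts is uncertain. By their known roles the members fell into 9 transcription and chromatin regulators, 9 inhibitors and dampers of signalling, 9 chemokine, complement and immune genes, 11 vessel genes, 12 genes of cytoskeleton, adhesion and junctions and 15 other named genes. The remaining 10 had no symbol. These groups were drawn up by hand after the values had been seen.

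The transcriptional regulators included 3 AP-1 family factors, JUNB, JDP2 and FOSL2. JUNB, a partner of FOS proteins, was at 206 and 253 CPM early (1 and 3 dpci) and at 39.4, 11.4 and 6.84 CPM late (plates 1, 2 and 3 of 7 dpci). JDP2, which dimerises with JUN proteins and represses AP-1 targets in mammals, stood at 301 and 197 CPM early and at 6.05, 6.33 and 6.84 CPM late. The late JDP2 values were nearly level across plates, whereas JUNB was highest on plate 1. FOSL2 was at 182 and 151 CPM, then at 21.2, 7.60 and 15.1 CPM. For CEBPB, a C/EBP factor of acute inflammation and myeloid cells, the values were 267 and 160 CPM early and 21.2, 10.1 and 10.9 CPM late. SPI1, which encodes the myeloid master regulator PU.1, gave 98.2 and 57.4 CPM early and 6.05, 3.80 and 2.73 CPM late. SPI1 is itself a macrophage marker and was left out of the marker sum. Values for klf2b, a factor that endothelial cells induce under flow, were 114 and 120 CPM early and 0, 7.60 and 0 CPM late. The other members of this group, EPAS1 (the hypoxia-inducible factor HIF-2 alpha), HES1 (a Notch target) and KDM6B (a histone H3K27 demethylase), lay between 73.9 and 102 CPM early and between 0 and 18.2 CPM late.

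Inhibitors that act in feedback loops formed the next group. SOCS3 proteins block JAK-STAT signalling downstream of cytokine receptors. The table gave this symbol to 2 members. The first (ENSDARG00000025428) was at 558 and 449 CPM early and at 66.6, 54.5 and 31.4 CPM late, and the second (ENSDARG00000026611) at 72.3 and 58.5 CPM early and at 3.03, 12.7 and 5.47 CPM late. For nfkbiaa, which encodes the NF-kB inhibitor IkB alpha, 490 and 245 CPM were measured early and 30.3, 29.2 and 13.7 CPM late. It differed most between the early plates, by almost the full 2-fold allowed. BTG2, an antiproliferative gene that p53 induces in mammals, had 222 and 275 CPM early and 48.5, 39.3 and 53.4 CPM late, so it kept more of its level than most members. TXNIP, which binds thioredoxin and lowers glucose uptake, had 155 and 141 CPM early and 3.03, 2.53 and 9.57 CPM late. In the same group ppp1r15a (a stress-induced phosphatase subunit that restores translation), PDE4B (a cAMP phosphodiesterase), sgk1 (a serum- and glucocorticoid-induced kinase) and GRB10 (an adaptor that dampens insulin receptor signalling) lay between 66.2 and 201 CPM early and between 0 and 27.2 CPM late.

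The immune group held the chemokine ccl35.2, at 493 and 317 CPM early and 54.6, 35.6 and 1.37 CPM late. Its late plates thus differed widely, with plates 1 and 2 above plate 3. Properdin, encoded by cfp, stabilises the alternative complement convertase, and its gene was at 322 and 192 CPM early and at 6.05, 0 and 1.37 CPM late. c1ql1, a secreted C1q-domain protein, was at 245 and 166 CPM early and at 9.08, 0 and 6.84 CPM late. FGL2, a fibrinogen-like protein of leukocytes, gave 242 and 160 CPM early and 12.11, 7.60 and 5.47 CPM late. Both cfp and c1ql1 had no UMI on plate 2 of 7 dpci. GPR84, a receptor for medium-chain fatty acids on myeloid cells, measured 195 and 151 CPM early and 6.05, 1.27 and 4.10 CPM late. LACC1, cd83, cd40 and lgals3bp.1 completed the group at 64.9 to 132 CPM early and 0 to 18.2 CPM late; cd83 and cd40 encode surface proteins of activated antigen-presenting cells.

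Vessel genes gave some of the widest ratios. The water channel gene AQP8 was at 561 and 885 CPM early and at 6.05, 3.80 and 0 CPM late, and its zebrafish relative is an endothelial marker that was left out of the marker sum for this reason. SPOCK3, a matrix proteoglycan, had 329 and 259 CPM early and 6.05, 22.8 and 0 CPM late, and SLC6A4, the serotonin transporter, had 327 and 218 CPM early and 0, 11.4 and 1.37 CPM late. The sialomucin cd34, found on vessels and blood progenitors, was at 178 and 250 CPM early and at 0, 11.4 and 0 CPM late. In 3 of these 4 genes plate 2 was the highest of the late plates. The Notch receptor NOTCH1 was at 92.0 and 75.0 CPM early and at 0, 2.53 and 0 CPM late. ramp2, a co-receptor for adrenomedullin needed for vessel integrity, gave 81.2 and 67.3 CPM early and 0, 1.27 and 0 CPM late. TFPI, the inhibitor of tissue factor, gave 57.5 and 86.2 CPM early and 0, 1.27 and 1.37 CPM late. ALDH1A2 makes retinoic acid in the epicardium and endocardium, and it was the member on the epicardial marker list. Its values were 133 and 105 CPM early and 9.08, 0 and 15.1 CPM late. The leukocyte adhesion receptor sele (E-selectin), the semaphorin sema3gb and the cytochrome P450 gene CYP1B1 lay between 51.4 and 97.2 CPM early and between 0 and 12.11 CPM late.

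Among cytoskeletal genes, s100a10b, whose product binds annexin A2, was at 654 and 445 CPM early and at 30.3, 21.5 and 68.7 CPM late. The LIM-domain gene crip1 was at 544 and 274 CPM early and at 27.3, 12.7 and 6.84 CPM late. Unlike crip1, s100a10b was highest on plate 3 among the late plates. On plate 3 low wells held 90.0% of the s100a10b UMIs, and only 6.67% of these wells held any. The gap junction gene gja13.2 was at 366 and 195 CPM early and at 27.2, 2.53 and 27.4 CPM late, and rhoca at 246 and 155 CPM early and at 21.2, 24.1 and 38.3 CPM late. Tropomyosin 3 (tpm3), an actin-binding protein, gave 137 and 92.7 CPM early and 18.2, 8.87 and 12.3 CPM late. CCN1, a matricellular protein and a target of TEAD factors, gave 104 and 55.2 CPM early and 0, 3.80 and 12.3 CPM late. Epiplakin (eppk1), a cytolinker of keratin filaments, was the member with no UMI on any 7 dpci plate. It was at 82.5 and 89.4 CPM early, which is at least 50.9-fold higher than the floor of 3 UMIs over all 3 late plates. The other members of the group were pleca (plectin), tuba8l3 (a tubulin), CORO1C (a coronin), lims1 (a focal adhesion adaptor) and TSPAN14 (a tetraspanin), at 62.2 to 133 CPM early and 0 to 21.5 CPM late.

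Of the other named genes, si:dkey-238c7.12 alone made up 27.0% and 22.4% of the set's molecules at 1 and 3 dpci. It was at 4820 and 3243 CPM early and at 462, 147 and 186 CPM late. Its neighbour in name, si:dkey-238c7.13, was at 451 and 735 CPM early and at 24.2, 62.4 and 12.3 CPM late. The plate highest at 7 dpci differed between them, plate 1 for the former and plate 2 for the latter. The plate 2 value of si:dkey-238c7.13 rests on 3 wells. The genes gnai1 and GNAI2 encode inhibitory G protein alpha subunits, and RASGEF1B is a Ras exchange factor. The Hsp40 co-chaperone dnaja, the glucose transporter slc2a3b and NDRG1, which hypoxia induces in mammals, also belonged here. Apart from the pair named first, the genes of this group lay between 52.9 and 214 CPM early. Among the genes with no symbol, ENSDARG00000016015 was at 249 and 290 CPM early and at 0, 15.2 and 17.8 CPM late, and ENSDARG00000088371 at 195 and 211 CPM early and at 27.3, 13.9 and 6.84 CPM late. The other 8 lay between 54.7 and 191 CPM early and between 0 and 21.2 CPM late.

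The question of which wells held these molecules was then asked of each plate on its own. Wells were called cardiomyocyte-low where cardiomyocyte markers took under 5% of their UMIs, and cardiomyocyte-high otherwise. There were 69 low wells at 1 dpci (21.6% of wells), 47 at 3 dpci (15.7%) and 12, 12 and 15 at 7 dpci. The class is a range and not a cell type, and 14, 11, 1, 1 and 3 wells lay between 4% and 6%. Low wells held 37.1% of all UMIs at 1 dpci and 23.9% at 3 dpci, against 5.10% to 9.34% at 7 dpci. For the median member, 85.2% of its UMIs at 1 dpci and 80.0% at 3 dpci lay in low wells, and the 10 wells richest in it held 72.6% and 83.3% of its UMIs.

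**Figure D2:**
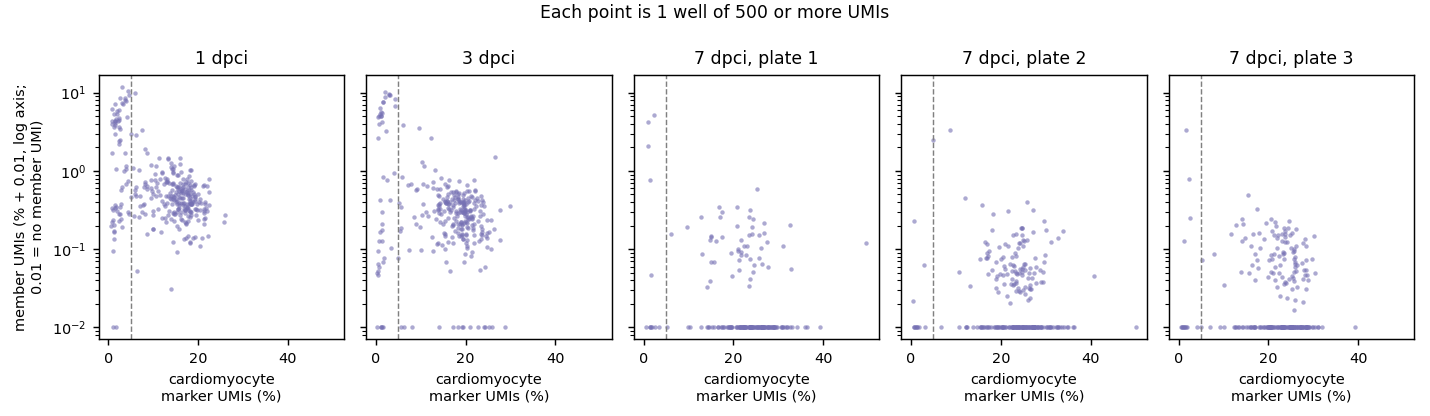
Each point is 1 well, placed by the share of its UMIs in cardiomyocyte markers (x axis) and in the 75 genes (y axis, log scale with 0.01 added), with the 5% boundary dashed. At 1 and 3 dpci a column of low wells reaches above 1% member UMIs, most cardiomyocyte-high wells at 1 dpci lie between 0.138% and 1.15% (the 5th and 95th percentiles), and at 7 dpci most wells sit at no member UMI.

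Scaled to their own totals, low wells carried 38070 CPM of members at 1 dpci and 46804 CPM at 3 dpci, and 9878, 2983 and 5303 CPM on the 7 dpci plates. High wells carried 5887, 4367, 568, 743 and 398 CPM in the same order. In both kinds of wells the late values lay below the early ones. The rule chose the members from these same UMIs, so this is a description from which nothing is read. The CPM of low wells over that of high wells had a median of 9.76 at 1 dpci and 12.8 at 3 dpci over the members, against 0.626 and 0.496 over the 1221 other genes that met the early part of the rule. It exceeded 2 in 69 members (92.0%) at each time point, and in 22.4% and 20.9% of all 1296 genes. This contrast is in large part fixed by the rule, since low wells held more of the UMIs on the early plates than at 7 dpci and only 20 members reached 50 CPM at both early time points in high wells alone, and nothing is read from it. For 66 members it exceeded 2 on both plates. It was 1 or less on both plates for 3 members without a symbol, ENSDARG00000016015, ENSDARG00000017046 and ENSDARG00000038382. Without the wells above 3 times the plate's median UMIs, the median was 3.81 at 1 dpci and 15.8 at 3 dpci.

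**Figure D3:**
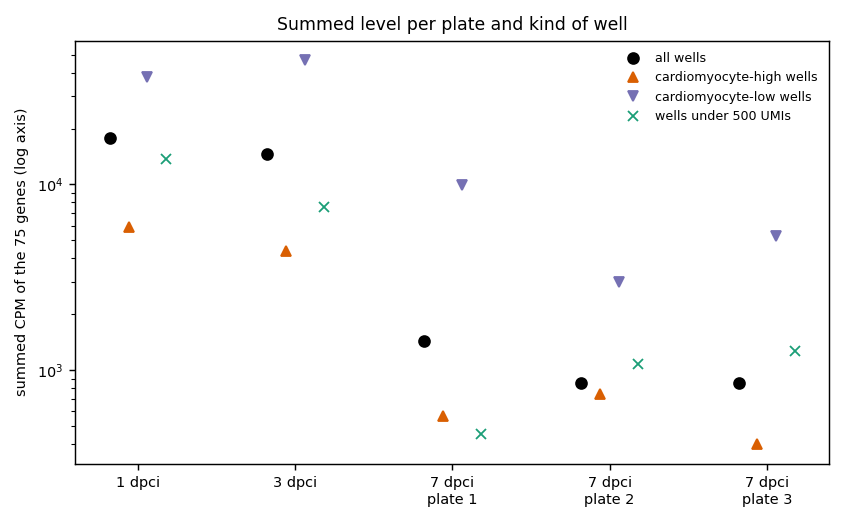
Points give the summed CPM of the 75 genes (log axis) on each plate for all wells, the 2 kinds of wells and the wells under 500 UMIs that the rule did not use. Low wells lie highest on every plate, and in each class the 1 and 3 dpci plates lie above the 3 plates of 7 dpci.

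The low wells were not of 1 kind. At 1 dpci macrophage markers led in 11 of them, with at least 5 UMIs, and these 11 wells held 16.6% of the plate's UMIs and 40.0% of the member UMIs. Endothelial or epicardial markers led in 20 wells, which held 11.4% of all UMIs and 32.6% of the member UMIs. At 3 dpci the corresponding figures were 11 wells with 34.9% of the member UMIs and 9 wells with 40.4%. Neutrophil markers led in 2 wells at 1 dpci and 1 at 3 dpci, with 4.90% and 1.39% of the member UMIs. Low wells led by no other list, 36 at 1 dpci and 26 at 3 dpci, held 1.75% and 0.380%. On the 7 dpci plates, 3, 0 and 1 wells were led by macrophage markers and 0, 2 and 1 by endothelial or epicardial markers. The macrophage-led wells were deep, at 8.66 times the plate's median UMIs at 1 dpci and 3.62 times at 3 dpci, and the sort had selected single mCitrine-positive cells. Whether these wells held a second cell was not tested.

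The members were next compared between these 2 kinds of low wells. A member was assigned to one kind if its CPM there was at least 4 times that in the other kind at both 1 and 3 dpci, a rule set after the values had been seen. The role groups too were drawn up after the values had been seen, so nothing is read from their match with the profiles. All 9 immune genes had the macrophage-led profile. The few wells led by neutrophil markers were in neither kind. There GPR84 was at 856 CPM at 1 dpci, against 820 CPM in macrophage-led wells, and cd83 at 9528 against 601 CPM at 3 dpci. Neither gene had a UMI in neutrophil-led wells on the other early plate, and ccl35.2 was at 20.8 CPM in them at 1 dpci. ccl35.2 was at 2769 and 2614 CPM in macrophage-led wells at 1 and 3 dpci against 35.4 and 12.8 CPM in endothelial- or epicardial-led wells, and cfp at 1474 and 1482 against 59.1 and 12.8 CPM. SPI1, CEBPB and the connexin gene gja13.2 shared this profile, which 21 members had in all. Of the 1296 genes 3.09% had it, which is 40 of the 335 among them that were more than 2 times higher in low than in high wells on an early plate. Of the 11 vessel genes, 10 had the endothelial or epicardial profile and sele had neither. AQP8 was at 3341 and 9542 CPM in endothelial- or epicardial-led wells against 85.4 and 225 CPM in macrophage-led wells, and SLC6A4 at 2323 and 2290 against 28.5 and 53.6 CPM. The leading list says only which markers had the most UMIs in a well. Of the 1615 CPM of epicardial or fibroblast markers on the 1 dpci plate, FN1 (ENSDARG00000006526) gave 469 and col1a1a 317. TCF21, TBX18 and wt1b were at 10.8, 3.38 and 5.41 CPM there, so the identity of epicardial-led wells is uncertain. At 1 dpci 15 of the endothelial- or epicardial-led wells were led by epicardial or fibroblast and 5 by endothelial markers. There AQP8 was at 4346 CPM in the former and 538 CPM in the latter, and SLC6A4 at 2746 and 1143 CPM. At 3 dpci the order was turned, at 6808 and 16786 CPM for AQP8 and 1469 and 4463 CPM for SLC6A4. ALDH1A2 was higher in endothelial-led wells already at 1 dpci (1187 against 804 CPM). klf2b, EPAS1, HES1, JDP2, rhoca, eppk1 and GRB10 were among the 23 members with the endothelial or epicardial profile, which 3.63% of the 1296 genes had (47 of the 335). The profile does not require that most UMIs lie in low wells. These held 42.2% and 44.8% of the HES1 UMIs at 1 and 3 dpci, against 92.9% and 96.3% for klf2b. The other role groups were spread over the profiles, and 6 of the 9 inhibitors and 7 of the 12 cytoskeletal genes had neither.

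**Figure D4:**
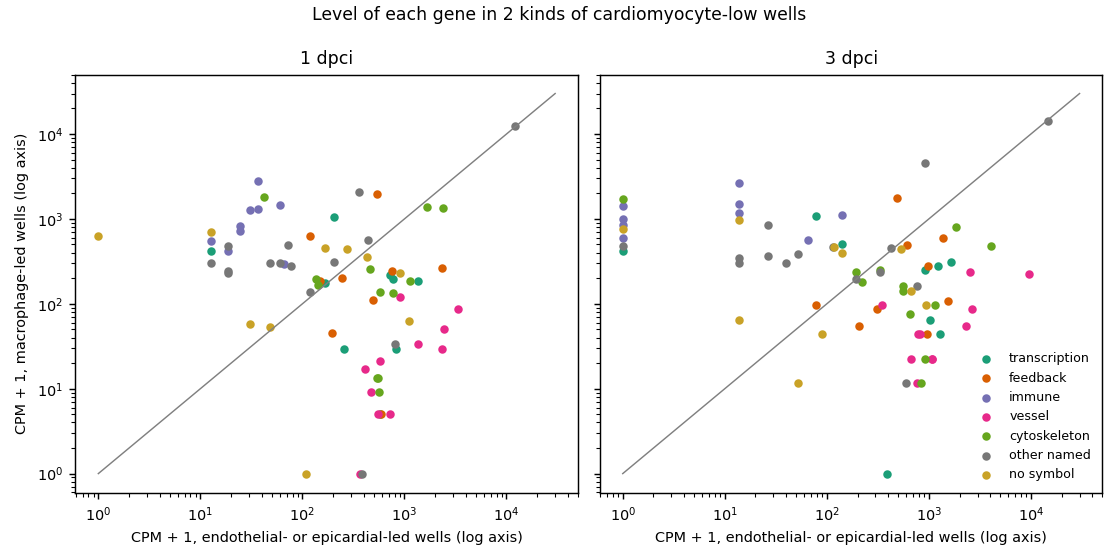
Each point is 1 of the 75 genes, with its CPM + 1 in wells led by endothelial or epicardial markers (x axis) and by macrophage markers (y axis), both on log axes, at 1 and 3 dpci. Immune genes lie above the line of equality and vessel genes below it on both plates, and si:dkey-238c7.12 lies at the top right near the line.

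Another 27 members had neither profile. si:dkey-238c7.12 was nearly level, at 12509 CPM in macrophage-led and 12107 CPM in endothelial- or epicardial-led wells at 1 dpci and at 14346 and 14644 CPM at 3 dpci. s100a10b was at 1349 and 2413 CPM at 1 dpci and at 483 and 4045 CPM at 3 dpci in the same order. For nfkbiaa the order was turned, at 1984 and 532 CPM at 1 dpci and 1783 and 488 CPM at 3 dpci, just short of 4-fold. The last 4 members were as high or nearly as high in cardiomyocyte-high wells as in low wells (a ratio of at most 2 on both early plates), as 74.2% of the 1296 genes were. They were PDE4B and the 3 genes without a symbol named above.

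Cardiomyocyte-high wells were examined alone, since the labels call all cells cardiomyocytes. In 39 of the 75 the lower early CPM was at least 4 times the highest 7 dpci CPM, where 3.55% of the 1296 genes reached this. The 1296 include the members, and of the 1221 other genes 0.573% reached it. Only 20 members had 50 CPM at both early time points in these wells, and 12 met the whole rule there, so others rest on few UMIs. Both early plates lay above all late plates in 71 members, and in 49.3% of the 1296 genes. The 4 exceptions were si:dkey-238c7.13, cd83, GRB10 and si:ch211-152p11.4. The median ratio of the lower early to the highest 7 dpci CPM was 4.34, with the 10 members at 0 on all late plates counted as highest. As the members were chosen from sums that include these wells, the comparison is not independent of the rule. Macrophage markers summed to 262 and 240 CPM in high wells at 1 and 3 dpci against 6.68 to 170 CPM at 7 dpci, and neutrophil markers to 1431 and 71.0 against 13.4 to 22.6 CPM. The gene mmp13a alone gave 914 of the 1431 CPM, while the neutrophil genes lyz and npsn were at 2.15 and 1.07 CPM there. The part of these markers in the member values of these wells was not tested.

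The unnamed gene ENSDARG00000016015 was the clearest member of high wells, at 371 and 368 CPM early and 0, 16.0 and 19.6 CPM late. SOCS3 (ENSDARG00000025428) was at 361 and 349 CPM early and at 73.5, 34.7 and 28.7 CPM late, and JUNB at 119 and 97.2 CPM early and 6.68, 9.34 and 7.54 CPM late. In these genes the early plates were close to each other and all late plates were lower. PDE4B was at 105 and 126 CPM early and at 16.0 to 23.4 CPM late. BTG2 was at 146 and 209 CPM early and at 41.5 to 58.9 CPM late. JDP2 was at 175 and 79.8 CPM early and at 5.34 to 6.68 CPM late. It had a UMI in 16.8% and 6.32% of high wells at 1 and 3 dpci, and low wells held 63.5% and 69.1% of its UMIs. si:dkey-238c7.12 was at 1581 and 610 CPM early and at 70.1, 151 and 45.2 CPM late, and made up 26.9% of the member UMIs of high wells at 1 dpci. Vessel genes together were at 437 and 139 CPM in high wells early and at 3.34, 26.7 and 3.02 CPM late, against 4499 and 8749 CPM in low wells early.

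**Figure D5:**
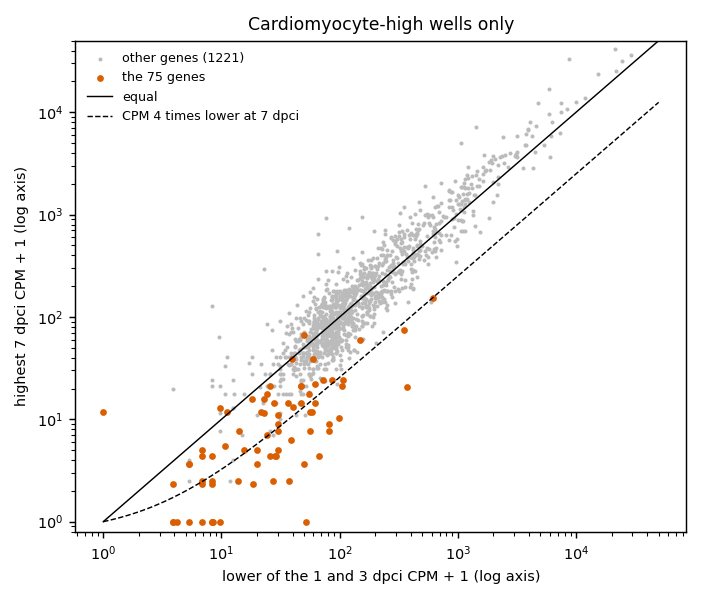
For the 1296 genes with 50 CPM or more at both early time points, the lower early CPM + 1 in cardiomyocyte-high wells (x axis) is set against the highest 7 dpci CPM + 1 (y axis), both on log axes. Of the 75 members (orange), 39 lie on or below the dashed curve, where CPM before the 1 is added differs 4-fold, and 71 lie below the line of equality.

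Most high wells of the early plates held some member molecules. To compare wells of different depth, each was thinned to 1000 UMIs, which left out 28 and 49 high wells at 1 and 3 dpci and 81, 40 and 41 at 7 dpci. The median high well then held 4 members at 1 dpci, 2 at 3 dpci and 0 on each plate of 7 dpci. At least 1 member was found in 95.5% of thinned high wells at 1 dpci and 89.7% at 3 dpci, and in 26.8%, 25.1% and 30.0% at 7 dpci. Unthinned, these shares were 100%, 94.1%, 30.3%, 46.8% and 45.5%, at median depths of 2638, 2090, 1039, 2383 and 2243 UMIs. The part of free RNA in these shares was not tested. Among thinned high wells, si:dkey-238c7.12 alone was found in 71.2% at 1 dpci and 28.9% at 3 dpci. The rule chose genes low at 7 dpci, so the late shares are not independent of it. No such share was taken for other genes. In thinned low wells the median was 12 members at 1 dpci and 16.5 at 3 dpci, with 8 of 69 and 11 of 47 low wells left out. Unthinned and with no low well left out, the median was 16 members at 1 dpci and 5 at 3 dpci. Thinning only lowers the count of a well, so the higher 3 dpci median after it reflects the wells left out. The share of member UMIs in high wells had a median of 0.439% at 1 dpci and 0.282% at 3 dpci, and its highest value was 9.79% and 3.86%. At 7 dpci the median well was at 0 on all plates, and plate 2 had 1 well at 3.32%.

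Related genes that are not members were followed through 10 lists, drawn up with earlier results of these data known. Some list genes, among them CORO1A, lgals9l1, c1qa, mmp13a and FN1, are also cell markers counted in the marker sums above. The counts of list genes that fell are therefore not independent of those sums. A quasi-likelihood test in edgeR on UMIs summed per plate, over 5189 genes, took its spread from the 3 plates of 7 dpci and assumed that the lone early plates vary like them. All p below are from this test, adjusted by Benjamini-Hochberg over all genes, and they measure the spread between plates, which may be technical. From 1 to 7 dpci 2.85% of all genes rose and 4.72% fell, and from 3 to 7 dpci 0.443% rose and 1.08% fell. Of 228 list genes tested, 7 rose and 49 fell from 1 to 7 dpci, and 0 rose and 6 fell from 3 to 7 dpci. The median log2 difference of the 228 genes was -1.60 and -1.11, against -0.12 and -0.08 over all genes. At an unadjusted p under 0.05 were 120 and 73 of them in both directions together, against 22.6% and 15.7% of all genes. From 3 to 7 dpci 10 of the 228 were higher at an unadjusted p under 0.05, against 6.94% of all genes, and DESeq2 called 6 higher, against 2.7% of all genes. The lists below with no higher call from 1 to 7 dpci held 127 genes, of which 4 were higher at an unadjusted p under 0.05, against 9.75% of all genes, and DESeq2 called 0 of them, against 5.05%. In cardiomyocyte-high wells alone, 9 of 160 list genes passed from 1 to 7 dpci, 8 of them lower, with a median of -0.39. Over all 4504 genes of that fit 1.15% passed, 0.622% lower, with a median of -0.09. Leaving out 1 late plate moved the count of 56 to between 29 (without plate 2) and 115 (without plate 1), and the count of 6 to between 6 and 73 (73 without plate 1, 33 without plate 3). Of the 27 list genes named by rule, 11 kept an adjusted p under 0.05 from 1 to 7 dpci in every alternative that tested them (both PTGS2, tnfa, CORO1A, ANXA6, mmp13a, FN1, vcanb, f3b, cd9b and lgals9l1).

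Inflammatory and lysosomal lists held lower calls and no higher ones. In the list of NF-kB, prostaglandin and cytokine response 8 of 24 genes fell from 1 to 7 dpci and none rose, with a median log2 difference of -2.61. Both genes with the symbol PTGS2, the inducible prostaglandin synthase, fell (adjusted p = 0.0096 and 0.014). They were at 189 and 134 CPM at 1 dpci, at 24.3 and 27.6 CPM at 3 dpci and at 0 on all late plates, so 1 dpci was at least 117-fold and 82.8-fold above the floor of 3 UMIs over the late plates. The cytokine gene tnfa fell from 97.6 CPM at 1 dpci to 0 on the late plates (adjusted p = 0.023) and was at 3.31 CPM at 3 dpci. These 3 genes were under 50 CPM at 3 dpci and differed more than 2-fold between the early plates, and either kept them out of the set. Among lysosome and antigen presentation genes 11 of 30 fell and none rose (median -2.03), led by the acid lipase LIPA, the cathepsin CTSZ and the progranulin gene grna. CTSZ was at 349 CPM at 1 dpci, 106 CPM at 3 dpci and 12.11, 1.27 and 17.8 CPM late (log2 difference of 7 against 1 dpci -4.55 ± 0.74, SE, adjusted p = 0.015). Low wells held 95.4% and 92.7% of the CTSZ UMIs at 1 and 3 dpci. Complement and coagulation genes fell in 3 of 7 cases (c1qa, c7a and f3b, median -3.93). Tissue factor (f3b), the target of TFPI, was at 207 CPM at 1 dpci, 72.8 CPM at 3 dpci and 6.05, 5.07 and 10.9 CPM late (adjusted p = 0.0065). Low wells held 50.4% and 28.8% of the f3b UMIs at 1 and 3 dpci.

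Matrix and adhesion lists also held mostly lower calls. In extracellular matrix turnover 6 of 17 genes fell and none rose (median -3.03). Fibronectin (FN1, ENSDARG00000006526) was at 469 and 206 CPM early and at 0, 1.27 and 0 CPM late, and passed in both comparisons (adjusted p = 0.0051 and 0.0086). The collagenase mmp13a and the proteoglycan vcanb fell from 1 to 7 dpci as well. Low wells held 10.8% and 100% of the mmp13a UMIs at 1 and 3 dpci, and 94.4% and 79.2% of the vcanb UMIs. Of keratins, tetraspanins and adhesion genes 6 of 27 fell and none rose (median -0.81), among them the tetraspanin cd9b, the claudin cldni and the galectin lgals9l1. Actin remodelling genes were mixed, with 9 of 38 lower and 3 higher (median -1.15), and those with the largest change were IQGAP1, CORO1A and ARPC5, all lower. CORO1A, a coronin of leukocytes, was at 171 and 49.7 CPM early and at 3.03, 2.53 and 0 CPM late (adjusted p = 0.0085), with 91.7% of its UMIs at 1 dpci in low wells. Annexins and S100 proteins had 1 lower and 1 higher call of 11. The partner of s100a10b, ANXA2, was at 3048 and 1422 CPM early and at 109, 15.2 and 187 CPM late (adjusted p = 0.024). Low wells held 64.1% and 49.6% of the ANXA2 UMIs at 1 and 3 dpci. ANXA6 went the other way, from 0 UMIs at 1 dpci and 32.0 CPM at 3 dpci to 63.6, 139 and 130 CPM (adjusted p = 0.0065).

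The remaining lists held fewer calls, set beside the 4.72% of all genes that fell and the 2.85% that rose from 1 to 7 dpci. Endoplasmic reticulum genes had 1 lower call of 22, near the share over all genes. It was the chaperone gene CANX (adjusted p = 0.023), and the list had a median of -1.84. Low wells held 82.1% and 65.9% of the CANX UMIs at 1 and 3 dpci. In the list of redox, iron and xenobiotic stress 2 of 27 genes fell and 2 rose. SQSTM1, an autophagy receptor, fell (log2 difference -2.12 ± 0.42, SE, adjusted p = 0.028), while the mitochondrial antioxidant genes PRDX3 (1.61 ± 0.35, SE, adjusted p = 0.037) and SOD2 (1.48 ± 0.35, SE, adjusted p = 0.044) rose. SOD2 was already at 620 CPM at 3 dpci, against a late mean of 660 ± 107 CPM (SD, n = 3). Low wells held 92.0% and 88.9% of the SQSTM1 UMIs at 1 and 3 dpci. Of signal dampers and TEAD targets 3 of 26 fell and 1 rose. klf2a, the paralog of the member klf2b, was at 61.6 and 43.1 CPM early and at 0 on all late plates (adjusted p = 0.029 for 7 against 1 dpci), with all of its early UMIs in low wells. CCN2, a relative of the member CCN1, fell from 185 CPM at 1 dpci to a late mean of 4.95 ± 6.51 CPM (SD, n = 3, adjusted p = 0.028), but was already at 5.51 CPM at 3 dpci. The higher call was TEAD3, a factor that binds TEAD sites, at 18.2 CPM at 1 dpci and 66.5 ± 10.7 CPM late (SD, n = 3). It was already at 60.7 CPM at 3 dpci.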

How the data were processed

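Estimated counts were deposited: molecules of each gene in each well, for which the authors had allowed for UMI collisions among 4096 barcodes, without scaling to depth. Per the methods the authors mapped reads to Zv9, and the submitters' processing notes name BWA 0.6.2. The annotation is not given in the sources used here. Wells with at least 500 non-ERCC UMIs were kept, and CPM used summed non-ERCC UMIs, mitochondrial genes included. ERCC spike-ins took 30.1% to 55.4% of UMIs. Doublets were gated out in the authors' sort by size and granularity, none was called here, and an alternative left out deep wells. Gene names matched 14285 of 17997 IDs (79.4%). Sums rounded to whole numbers were tested with edgeR 4.0.16 (TMM, mean of at least 10 CPM, two-sided) in R 4.3.3, checked on simulated data. The simulation gave all plates the same spread, so it cannot check whether the lone early plates vary like the late ones. DESeq2 1.42.0 was an alternative. The standard error of a log2 difference was derived from its F statistic. Values were given on every plate for the 25 members with the highest lower early CPM and those in a list, and for up to 3 called non-members a list with the largest change. The members, lists and tests were chosen with earlier results of these data known. A planned motif search in promoters was not run.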

Additional observations from a re-analysis of the deposited data

Results flagged for a closer look

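Wells under 500 UMIs took no part in the rule or in the comparisons, and they too held member molecules. The 75 genes summed to 13767 CPM (95% exact binomial interval 11786 to 15980) in 65 such wells at 1 dpci and to 7593 CPM (6273 to 9108) in 84 wells at 3 dpci. On plates 1, 2 and 3 of 7 dpci they summed to 456 CPM (278 to 704), 1075 CPM (657 to 1660) and 1272 CPM (831 to 1864) in 194, 137 and 138 wells. Every value lay above what a count of 3 UMIs would give (68.3 to 243 CPM). The early plates lay above all late plates, as in the deeper wells, and with 1 plate per early time point this was not tested. The intervals cover counting error only and rest on 170, 115, 20, 20 and 26 member UMIs. No group had enough plates for a check for outlying samples.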

How the results depend on the processing

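No paired analysis was possible because replicate numbers are given for the 7 dpci plates alone. The number of members (75) became 29 without wells above 3 times the plate's median UMIs, 17 in cardiomyocyte-high wells, 35 with each well scaled to the same total, 40 with TMM totals, 145 and 37 at 25 and 100 CPM, and 85 to 115 when 1 late plate was left out. Of these, 17, 12, 23 and 39 of the first 4 counts were among the 75. Their median ratio (11.7) was 6.11 in cardiomyocyte-high wells and 11.08 to 17.86 without 1 late plate. Without low wells led by another marker list, a setting chosen after seeing the data, 13 genes met the rule, 8 of them members, and the ratio was 5.80. The members' summed CPM at 1 dpci, 3 dpci and on average at 7 dpci was 5887, 4367 and 570 in cardiomyocyte-high wells, 9262, 6848 and 708 without deep wells. It was 10716 and 7511 at 1 and 3 dpci with each well scaled, 21129 and 16717 without mitochondrial genes, and at 3 dpci 15112 with a minimum of 1000 UMIs. Leaving out 1 late plate gave a 7 dpci mean of 857 to 1147. The low to high ratio at 1 and 3 dpci was 4.63 and 9.27 with the boundary at 3%, 10.5 and 23.2 at 10%, and 3.81 and 15.8 without deep wells. For list genes called from 1 to 7 dpci (56) the count was 103 with no filter on low counts, 9 in cardiomyocyte-high wells, 25 without deep wells and 29 to 115 without 1 late plate. From 3 to 7 dpci (6) it was 13 with library totals, 17 with DESeq2, 45, 3, 10 and 6 to 73. Over all genes, calls from 1 to 7 dpci (393) became 708 with no filter, 52 in cardiomyocyte-high wells and 145 to 1227 without 1 late plate. Those from 3 to 7 dpci (79) became 219 with DESeq2, 312, 24, 142 without deep wells and 45 to 735. Library totals moved the calls from 1 to 7 dpci from 148 higher and 245 lower to 45 and 387, and DESeq2 to 262 and 188. The cause of these differences was not tested. Plate 1 of 7 dpci was the shallowest, and 3 macrophage-led wells held 48.6% of its member UMIs. The part of either in these counts was not tested.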
